A study of Homo sapiens with 2 samples.

Results

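The genes described here are 41 human genes that act in protein folding and quality control in the endoplasmic reticulum (ER), out of 19198 genes measured by mRNA sequencing. They were chosen by gene name, with earlier results of these libraries known, among them higher values of several ER stress genes in A549-NICD1, so the contrast between the libraries is given as a description and without a test. All 41 were found in both deposited tables, and all 41 passed a filter on low values, a mean of at least 1 FPKM over both libraries (fragments per kilobase of gene length, relative to the depth of the library). They fall into 6 classes by role. The first holds 4 genes, which are 3 stress sensors and the transcription factor XBP1. Next are 5 chaperones, 6 co-chaperones and ER stress-inducible secreted factors, and 7 disulfide isomerases and relatives. The last are 10 genes of ER-associated degradation (ERAD) and 9 translocon genes.

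Both libraries came from polyA RNA of cells labelled A549, an established human non-small cell lung cancer line. A549-NICD1 is labelled as overexpressing NICD1, the intracellular domain of NOTCH1 that activates transcription together with RBPJ, and A549-Vector is the vector control. The study's methods describe stable lines made by viral infection and antibiotic selection from a lentiviral NICD1 construct; whether the sequenced lines were clones or pools is not given in the sources used here. The question put to these libraries was which genes respond to NICD1. With 1 library per group, no difference below has a replicate check, and the intervals given cover counting error only. Whether NICD1 or another difference between the 2 cultures moved a value cannot be told apart, and in bulk RNA neither can fewer cells with a transcript and less of it per cell.

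Depth, found from the values themselves, came to 48528434 reads for the A549-NICD1 library and to 48602848 for A549-Vector. NOTCH1, the gene introduced in part, was at 2865 FPKM in A549-NICD1 against 5.40 FPKM in A549-Vector, as the labels have it. Of 16 markers listed for A549 cells, 8 reached 1 FPKM in each library and 7 in neither, the keratins KRT7 and KRT19 and the fibrinogen gene FGB stood at 0 in each table, and the list summed to 213 FPKM in A549-Vector against 358 FPKM in A549-NICD1, with the keratin KRT8 highest at 85.9 and 176 FPKM. Of 7 markers listed for HEK293, a human embryonic kidney line, 6 reached 1 FPKM in each library and 1 in neither, with sums of 236 and 223 FPKM in the same order and CDKN2A highest at 139 and 138 FPKM. The cell line label is therefore used below as a label only, and the part of the marker difference in the results was not tested.

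Proteins that enter the secretory pathway pass through the SEC61 channel into the ER, where chaperones bind them, disulfide isomerases form and rearrange their disulfide bonds, and ERAD returns those that fail to fold to the cytosol for degradation. When unfolded proteins accumulate, the membrane sensors ATF6, ERN1 (IRE1) and EIF2AK3 (PERK) start the unfolded protein response, in which cleaved ATF6 and the factor made from spliced XBP1 mRNA switch on genes of folding and degradation. Cleaved ATF6 is known to act through the ER stress response element (ERSE) and a shorter form of it, ERSE-II, in the promoters of its targets, and both contain a CCAAT-type box and the letters CCACG.

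These elements were searched in RefSeq promoter windows (GRCh38.p14) that run from 250 bases before to 50 bases after each annotated start. A window was given for 38 of the 41 genes, that is, all but PDIA3, DERL1 and DERL3. Some genes have several windows, such as CANX with 4, and a gene was counted if any of its windows matched. The percentages below are of single windows, so they are not on the same unit as the counts of genes. ERSE, spelled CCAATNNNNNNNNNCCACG and searched on both strands, occurred in windows of 7 of these 38 genes and in 0.0769% of all 35116 windows. ERSE-II, spelled ATTGGNCCACG, occurred in windows of 3 of the 38 genes and in 0.0541% of all windows. Both elements were chosen after the data were seen, as elements known from promoters of ATF6 targets, so nothing is read from these shares. The 10 genes with either element were XBP1, all 5 chaperones, SDF2L1 and CRELD2 among the co-chaperones and secreted factors, PDIA6 among the isomerases and HERPUD1 in ERAD. None of the 9 translocon genes had either in its windows.

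The stretches that hold these matches are shown because the genes with the highest log2 fold changes, HERPUD1 and HSPA5, carry one each and the remaining matches can be set beside them. Capitals mark the fixed letters of ERSE and ERSE-II and, in HYOU1, those of the UPRE described below; all stretches read 5′ to 3′ on the strand of the gene, so a match on the other strand appears as its reverse complement. HERPUD1 lies at chr16:56931942-56932141 on the plus strand and HSPA5 at chr9:125241344-125241543 on the minus strand, both bases -200 to -1 from the start, with ERSE-II of HERPUD1 at -117 to -107 and ERSE of HSPA5 at -66 to -48.
HERPUD1: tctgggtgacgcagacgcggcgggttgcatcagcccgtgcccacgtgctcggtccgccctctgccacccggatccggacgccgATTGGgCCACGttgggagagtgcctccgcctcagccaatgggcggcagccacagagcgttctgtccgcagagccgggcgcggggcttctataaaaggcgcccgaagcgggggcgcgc
HSPA5: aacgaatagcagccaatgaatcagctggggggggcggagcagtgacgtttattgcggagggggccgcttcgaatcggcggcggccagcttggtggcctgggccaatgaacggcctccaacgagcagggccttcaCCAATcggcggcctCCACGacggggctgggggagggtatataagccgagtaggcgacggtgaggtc

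The other matches are given with up to 15 bases on either side. They lie at chr22:28800588-28800636 for XBP1, chr12:103930201-103930354 for HSP90B1, chr19:12938369-12938417 for CALR, chr5:179698763-179698811 for CANX and chr11:119057259-119057405 for HYOU1. Those of SDF2L1, CRELD2 and PDIA6 lie at chr22:21642099-21642139, chr22:49918539-49918587 and chr2:10812838-10812886. XBP1, HYOU1 and PDIA6 are on the minus strand and the others on the plus strand. HSP90B1 had ERSE on both strands, at -194 to -176 and at -89 to -71, and HYOU1 had ERSE-II at -185 to -175 and at -79 to -69.
XBP1: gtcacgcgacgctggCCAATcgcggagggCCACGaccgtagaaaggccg
HSP90B1: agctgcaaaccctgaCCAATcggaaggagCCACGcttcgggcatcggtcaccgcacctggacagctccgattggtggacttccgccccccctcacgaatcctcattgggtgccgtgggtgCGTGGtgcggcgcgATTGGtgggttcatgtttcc
CALR: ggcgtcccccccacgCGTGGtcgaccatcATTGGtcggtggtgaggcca
CANX: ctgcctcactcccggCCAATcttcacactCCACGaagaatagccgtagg
HYOU1: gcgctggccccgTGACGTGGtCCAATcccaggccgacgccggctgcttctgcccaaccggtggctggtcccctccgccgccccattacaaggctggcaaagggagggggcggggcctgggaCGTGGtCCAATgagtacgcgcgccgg
SDF2L1: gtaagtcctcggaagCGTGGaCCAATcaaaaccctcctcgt
CRELD2: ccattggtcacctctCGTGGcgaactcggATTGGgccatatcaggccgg
PDIA6: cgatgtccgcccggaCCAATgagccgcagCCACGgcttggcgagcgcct

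The XBP1-type element UPRE, spelled TGACGTGG, occurred in windows of 5 of the 38 genes, HYOU1, TXNDC5, SEC62, SSR3 and SSR4, and in 0.729% of all windows. In HYOU1 it lies at -188 to -181 and so overlaps ERSE-II. The cyclic AMP response element TGACGTCA was in no window of the 38 genes and in 1.85% of all windows. TGGGAA, the core letters bound by RBPJ, the DNA-binding partner of NICD1, occurred in windows of 13 of the 38 genes and in 24.0% of all windows. By class it was in windows of 6 of the 9 translocon genes and of 1 of the 5 chaperones, CALR. A match is a description of these letters and not a site known to be used in these cells. Only exact spellings within the windows were counted, so a gene without a match may still hold a variant spelling or an element elsewhere.

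As a group, the 41 genes were higher in A549-NICD1. The median log2 fold change (A549-NICD1 over A549-Vector, on scaled FPKM plus 0.1, with the A549-NICD1 values divided by a factor of 0.9616) was 0.27, against a median near 0 over all 12263 genes past the filter. A total of 37 genes were above 0 and 4 below, and of all genes 49.0% were above 0, or 54.6% of those at a mean of 10 FPKM or more, where 33 of the 41 lie. At least 1.5-fold higher in A549-NICD1 were 6 of the 41 genes. Of all genes 1.96% were, or 0.95% of those at a mean of 10 FPKM or more. With FPKM as deposited, without the scaling factor, 3 of the 41 genes were. At least 1.2-fold higher were 22 of the 41. Of all genes 9.13% were, or 6.64% of those at a mean of 10 FPKM or more. None of the 41 was at least 1.5-fold lower, which 2.34% of all genes were, or at least 1.2-fold lower, which 12.5% of all genes were. For genes at a mean of 10 FPKM or more, these shares were 0.48% and 5.48%. Since the genes were chosen with this contrast known, nothing is read from these shares. For 35 of the 41 genes the 95% Clopper-Pearson counting interval lay above 0, and for 1, ERP29, it lay below 0. At this depth such intervals are narrow, and they lay above 0 for 28.6% and below 0 for 29.5% of all genes, or for 35.6% and 27.0% of those at a mean of 10 FPKM or more. Nothing is read from these shares either. The bounds of this interval stand in parentheses after each log2 fold change that follows. They rest on the fewest reads that fit the values, so their widths are not comparable between genes.

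The threshold of 1.5-fold cut through a run of similar values. The genes just inside it were HSP90B1 at 1.52-fold and XBP1 at 1.52-fold, and 6 more genes lay between 1.44-fold and 1.48-fold, namely DNAJB9, PDIA4, CRELD2, DNAJB11, DNAJC3 and DERL3. HERPUD1 and HSPA5 stood apart from all the others, since the next gene, MANF, was at 1.59-fold. Without them the median over the remaining 39 genes was still 0.27.

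All 3 sensors lay at a lower log2 fold change than XBP1, and 1 of them, EIF2AK3, was past 1.2-fold. ATF6 was at 10.6 FPKM in A549-NICD1 and 10.1 FPKM in A549-Vector, with a log2 fold change of 0.13 (0.06 to 0.19). ERN1, the kinase and ribonuclease that splices XBP1 mRNA, was at 3.07 and 2.90 FPKM in the same order, with a log2 fold change of 0.14. Its interval of -0.15 to 0.44 held 0, but it rests on the fewest possible reads, 199 and 188 at a length of 1335 bases. The longest ERN1 transcript has 7876 bases, so the interval may be too wide. Whether it would hold 0 at the actual reads is not known. EIF2AK3, the kinase that phosphorylates the initiation factor eIF2 alpha, was at 5.79 and 4.94 FPKM, with a log2 fold change of 0.28 (0.11 to 0.45). It was the highest of the sensors, at 1.21-fold. XBP1 was at 81.3 FPKM in A549-NICD1 and 55.5 FPKM in A549-Vector, with a log2 fold change of 0.61 (0.56 to 0.66). Gene totals do not separate its spliced from its unspliced mRNA. Of all transcripts in this class XBP1 was the most abundant, at 26.5 times the level of ERN1 in A549-NICD1 and 19.1 times in A549-Vector.

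Chaperones had the highest class median, 0.60. HSPA5 (BiP), the HSP70 of the ER lumen and the protein that holds the sensors inactive, was at 243 FPKM in A549-NICD1 and 116 FPKM in A549-Vector. Its log2 fold change was 1.12 (1.098 to 1.144), the 59th highest of the 12263 genes, and its rank by level went from 470 in A549-Vector to 177 in A549-NICD1. HYOU1, a large HSP70-like protein that serves HSPA5 as a nucleotide exchange factor, was at 64.1 and 42.8 FPKM, with a log2 fold change of 0.64 (0.60 to 0.68). HSP90B1 (GRP94), the HSP90 of the ER, was at 290 and 199 FPKM, with a log2 fold change of 0.60 (0.57 to 0.63), so that counting error alone spans the 1.5-fold line. The lectin chaperones, which bind sugar-bearing clients, were nearer to 0 than the heat shock proteins of this class. The membrane-bound CANX was at 198 and 159 FPKM, with a log2 fold change of 0.37 (0.35 to 0.39), and the soluble CALR at 391 and 351 FPKM, with a log2 fold change of 0.21 (0.13 to 0.30).

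The proportions among the chaperones differed between the libraries. On the FPKM scale, which is per length, HSPA5 was at 0.730 times the level of CANX in A549-Vector and at 1.23 times in A549-NICD1. CALR stayed the highest of the 41 genes in both libraries. Summed over the class, the level was 868 FPKM in A549-Vector against 1185 FPKM in A549-NICD1, a scaled ratio of 1.42.

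All 6 co-chaperones and secreted factors were at least 1.2-fold higher, within a narrow range of log2 fold changes from 0.40 to 0.67 and with a median of 0.55. MANF, an ER-resident and secreted neurotrophic factor, was at 58.3 FPKM in A549-NICD1 and 38.01 FPKM in A549-Vector, with a log2 fold change of 0.67 (0.59 to 0.76). CRELD2, an ER protein with EGF-like domains, was at 34.2 and 24.2 FPKM, with a log2 fold change of 0.56 (0.47 to 0.65). SDF2L1, a partner of HSPA5 and DNAJB11, was lowest in the class at 59.1 and 46.6 FPKM, with a log2 fold change of 0.40 (0.31 to 0.48). Its value still lay above that of every translocon gene.

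J-domain proteins deliver clients to HSPA5 and trigger its ATPase. Those of this class were almost level with each other in fold change but not in abundance. SEC63, a J-domain protein among the translocon genes, had a log2 fold change of 0.06. DNAJB11 was at 38.3 FPKM in A549-NICD1 and 27.4 FPKM in A549-Vector, with a log2 fold change of 0.54 (0.46 to 0.62). DNAJC3, which also inhibits EIF2AK3, was at 17.3 and 12.4 FPKM, with a log2 fold change of 0.53 (0.47 to 0.60). DNAJB9 was at 4.32 and 2.9995 FPKM, a log2 fold change of 0.57. Its interval, 0.31 to 0.86, rests on the fewest possible reads, 266 and 185. HSPA5 was at 56.2 times the level of DNAJB9 in A549-NICD1 and at 38.7 times in A549-Vector.

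Among the disulfide isomerases and relatives, PDIA4 was set apart. It was at 127 FPKM in A549-NICD1 and 89.3 FPKM in A549-Vector, with a log2 fold change of 0.56 (0.53 to 0.60), whereas the class median was 0.25. PDIA3, which works with CANX and CALR on glycoproteins, was at 138 and 118 FPKM, with a log2 fold change of 0.28 (0.24 to 0.32). P4HB, protein disulfide isomerase itself, was at 234 and 202 FPKM, with a log2 fold change of 0.27 (0.24 to 0.30). Both lay just above the 1.2-fold line, and the next genes just under it.

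TXNDC5 was at 86.0 FPKM in A549-NICD1 and 75.02 FPKM in A549-Vector, with a log2 fold change of 0.25 (0.22 to 0.29). ERP44, which retains folding oxidases in the early secretory pathway, was at 12.2 and 10.7 FPKM, with a log2 fold change of 0.25 (0.17 to 0.33). PDIA6 was at 83.7 and 76.8 FPKM, with a log2 fold change of 0.18 (0.14 to 0.22). ERP29, a relative without the active-site cysteine pair, was lower in A549-NICD1, at 52.2 and 58.1 FPKM, with a log2 fold change of -0.10 (-0.16 to -0.03). It was the only one of the 41 genes whose counting interval lay below 0.

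In ERAD, HERPUD1 stood alone. HERPUD1, an ER membrane protein with a ubiquitin-like domain that assembles with the SYVN1 ligase (gene at chr16:56932142-56944864, GRCh38.p14), was at 42.9 FPKM in A549-NICD1 and 16.1 FPKM in A549-Vector. Its log2 fold change was 1.46 (1.38 to 1.55), or 2.75-fold, the 32nd highest of the 12263 genes and the highest of the 41. HERPUD1 was at 0.995 times the level of SYVN1 in A549-Vector and at 2.28 times in A549-NICD1. Without HERPUD1, the median log2 fold change of the 9 other ERAD genes was 0.20, and none of them reached 1.5-fold.

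The ligase that carries ERAD substrates to ubiquitin was modestly higher. SEL1L, its scaffold, was at 23.2 FPKM in A549-NICD1 and 19.2 FPKM in A549-Vector, with a log2 fold change of 0.33 (0.28 to 0.39). SYVN1 (HRD1), its catalytic subunit, was at 18.8 and 16.2 FPKM, with a log2 fold change of 0.27 (0.09 to 0.45). The derlins, which form the exit path with the ligase, were all above 0. DERL1 was at 31.9 and 28.6 FPKM, with a log2 fold change of 0.21 (0.15 to 0.27). DERL2 was at 10.2 and 9.24 FPKM, with a log2 fold change of 0.20 (0.11 to 0.30). DERL3 was the least abundant of the 41 genes, at 2.81 and 2.002 FPKM, with a log2 fold change of 0.52 and a wide interval of 0.30 to 0.79.

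The genes that mark and recognise misfolded glycoproteins were close to 0. EDEM1, which helps to trim mannose from such clients, was at 7.59 FPKM in A549-NICD1 and 6.99 FPKM in A549-Vector, with a log2 fold change of 0.17 (0.09 to 0.26). EDEM3 was at 8.33 and 8.72 FPKM and EDEM2 at 7.01 and 8.01 FPKM, with intervals of -0.09 to 0.07 and -0.29 to 0.02. OS9, the lectin that reads the trimmed sugar, was at 38.6 and 40.1 FPKM with an interval of -0.05 to 0.06. For these last genes a difference was not detectable at this depth.

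**Figure D1:**
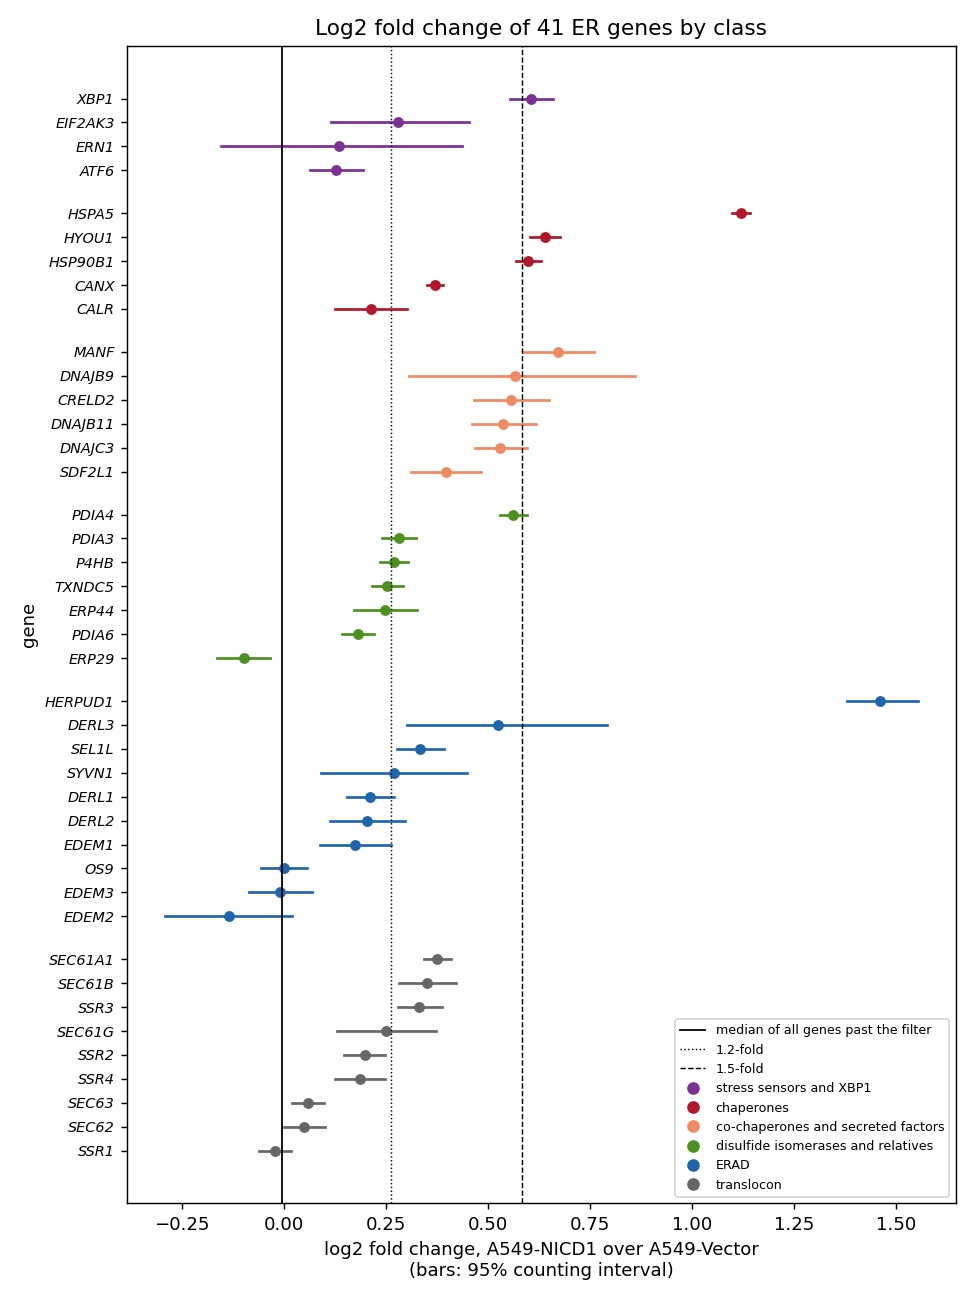
Log2 fold change of each of the 41 genes (dots) with its 95% counting interval (bars), by class, with lines at the median of all genes past the filter, at 1.2-fold and at 1.5-fold. HERPUD1 at 1.46 and HSPA5 at 1.12 lie to the right of all others, the 6 co-chaperones and secreted factors lie between 0.40 and 0.67, and the translocon genes lie between -0.02 and 0.38.

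The translocon genes had the lowest class median, 0.20, with none at 1.5-fold and 3 of 9 at 1.2-fold. This place depended on XBP1 in the sensor class, since the 3 sensors without it had a median of 0.14. SEC61A1, the pore of the channel, was at 89.9 FPKM in A549-NICD1 and 72.0 FPKM in A549-Vector, with a log2 fold change of 0.38 (0.34 to 0.41). SEC61B, its beta subunit, was at 137 and 112 FPKM, with a log2 fold change of 0.35 (0.28 to 0.42), and SEC61G, its gamma subunit, at 52.8 and 46.1 FPKM, with a log2 fold change of 0.25 (0.13 to 0.37). The subunits kept nearly the same proportions, with SEC61B at 1.53 times the level of SEC61A1 in A549-NICD1 and 1.55 times in A549-Vector. The auxiliary proteins for post-translational import lay nearer to 0 than the channel. SEC62 was at 20.4 and 20.5 FPKM with an interval of 0.0007 to 0.10, and SEC63, a J-domain partner of HSPA5, at 33.2 FPKM in both libraries with an interval of 0.02 to 0.10.

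The subunits of the translocon-associated protein complex differed among themselves. SSR3 was at 28.8 FPKM in A549-NICD1 and 23.8 FPKM in A549-Vector, with a log2 fold change of 0.33 (0.28 to 0.39). SSR2 was at 127 and 115 FPKM, with a log2 fold change of 0.20 (0.15 to 0.25), and SSR4 at 124 and 113 FPKM, with a log2 fold change of 0.19 (0.13 to 0.25). SSR1 was at 21.8 and 23.0 FPKM, and its interval of -0.06 to 0.02 held 0. Counting intervals of SSR1 and of the other subunits of the complex did not overlap.

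Set side by side, chaperones and co-chaperones had the higher medians. The median log2 fold changes were 0.60 for chaperones, 0.55 for co-chaperones and secreted factors, 0.25 for isomerases, 0.21 for sensors and XBP1, 0.21 for ERAD and 0.20 for the translocon. The chaperone median exceeded the translocon median by 0.40 and that of the isomerases by 0.35. The 4 lower classes lay within 0.06 of each other, but their spread and order depended on the processing, as given at the end. All 6 co-chaperones and secreted factors lay above SEC61A1, the highest translocon gene, whereas CALR and CANX lay within the range of the translocon. Across the 41 genes, which share both libraries, log2 fold change and log2 level in A549-Vector had a Pearson's r of 0.09 (Spearman's rho 0.20). With transcript length r was -0.29 (rho -0.32) and with GC content r was 0.08 (rho 0.14). The genes are not replicates, and the differences between the classes were not tested.

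Genes of the same pathway outside these classes had a median closer to that of all genes. Over 10 lists with 108 further ER genes, of which 106 passed the filter, the median log2 fold change was 0.08. At least 1.5-fold higher was 1 gene, or 0.94%, against 1.96% of all genes and 0.95% of those at a mean of 10 FPKM or more. At least 1.2-fold higher were 14, or 13.2%, against 9.13% of all genes and 6.64% of those at a mean of 10 FPKM or more. At least 1.2-fold lower was 1 gene, which 12.5% of all genes were, or 5.48% of those at a mean of 10 FPKM or more. The classes and these lists were chosen with earlier results of these libraries known, so nothing is read from these shares. QSOX1, a sulfhydryl oxidase of the Golgi and ER, was the gene at 1.5-fold, at 27.3 FPKM in A549-NICD1 and 16.1 FPKM in A549-Vector. Other thiol oxidoreductases and oxidases had a median of 0.11 and reached down to ERO1B at -0.07.

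List medians for entry into the ER ran from 0.06 for signal peptidase, through 0.13 for the signal recognition particle and its receptor, to 0.17 for the ER membrane complex. In signal peptidase SEC11C was highest at 0.42 and SPCS3 lowest at -0.03. In the signal recognition particle list SRPRB, the beta subunit of its receptor, was highest at 0.40 and SRP9 lowest at -0.06. In the ER membrane complex MMGT1 was highest at 0.26 and EMC6 lowest at -0.15. The oligosaccharyltransferase list, which adds sugars to entering chains, had a median of 0.08, from TMEM258 at -0.17 to OSTC at 0.46.

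The glycoprotein folding cycle had a median of 0.06, from CLGN at -0.18 to UGGT2 at 0.13, with none of 9 genes at 1.2-fold. Other ERAD factors had a median of 0.07, from ERLIN2 at -0.19 to SELENOS at 0.43, and 1 of 19 was at least 1.2-fold higher. Other chaperone cofactors had a median of 0.15, from FKBP7 at -0.31 to PPIB, the ER cyclophilin, at 0.47. Other sensors and ATF6 processing genes had a median of 0.04, from the protease MBTPS1 at -0.09 to CREB3L1 at 0.29, and the COPII coat, which buds vesicles from the ER, 0.07, from SAR1B at -0.11 to SEC24D at 0.27. All 10 list medians lay above 0 and below the lowest class median of the 41 genes. The 3 sensors without XBP1, however, had a median of 0.14, below the ER membrane complex and the other chaperone cofactors.

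Fold changes were set beside the promoter matches shown above. The 10 genes with ERSE or ERSE-II in a window had a median log2 fold change of 0.58, from PDIA6 at 0.18 to HERPUD1 at 1.46, and 8 of them were at least 1.2-fold and 5 at least 1.5-fold higher. For the 28 genes with neither exact spelling in a window, the median was 0.25, with 12 at 1.2-fold and 1, MANF, at 1.5-fold. These genes may still hold a variant spelling or an element elsewhere. Outside the 41 genes, 20 genes past the filter had either element in a window, and there the median was 0.06. Of these 20, 2 were at 1.2-fold, or 10%, and none at 1.5-fold, near the shares of all genes, 9.13% and 1.96%. The 41 genes were chosen with this contrast known and the motifs after the data were seen, so nothing is read from these counts. Genes with the UPRE letters had a median of 0.25 (n = 5) and those with the RBPJ core letters 0.28 (n = 13), against 0.27 and 0.27 for the genes without them.

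Some of these values may hold reads of overlapping or similar genes. Of the exon bases of DERL3, 87.3% overlap SMARCB1 on the opposite strand, which was at 109 FPKM in A549-NICD1 and 117 FPKM in A549-Vector. TXNDC5 shares 82.3% of its exon bases with the readthrough gene BLOC1S5-TXNDC5, and 57.7% of the PDIA3 transcript matches transcripts of other names, with its processed pseudogene PDIA3P1 leading. PDIA6 and DNAJB11 share 34.9% and 34.8% of their transcripts with other names. For HERPUD1, HSPA5, MANF, CRELD2, SDF2L1, PDIA4 and XBP1 the share was 0%. The libraries were strand-specific by the study's supplement, but whether the counting used the strand is not given in the sources used here.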

How the data were processed

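The data are 1 mRNA sequencing library of A549-NICD1 and 1 of A549-Vector, grouped by their genotype labels. The deposited table of each library holds a value per gene that was taken to be FPKM, that is, reads counted per gene by the authors over gene length and depth; the sources used here do not name the unit, which was read from the values. The submitters' processing notes list Bowtie2, HTSeq and the build hg38, with no versions. Symbols that had turned into date numbers (27 of 19225 rows) were dropped.

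Low values were whole multiples of a step. Their ratios over 3552 low genes gave a relative depth, and whole gene lengths gave depths of 48528434 (A549-NICD1) and 48602848 reads (A549-Vector). Whole reads were found for 99.97% of 17178 genes above 0 and for all 41 members. Reads are known up to a whole-number factor, and the fewest possible (lengths of at least 100 bases) were used. This choice can only widen a counting interval, whereas copies of 1 molecule among the reads would make it too narrow. The widening differs between genes. The length used was 117 bases for CALR, with a transcript of 1903, but 9674 for SSR1, with a transcript of 9669. Widths are therefore not comparable between genes.

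One factor, a trimmed mean of log2 ratios (30% of ratios and 5% of levels trimmed at each end), scaled A549-NICD1. Intervals are 95% Clopper-Pearson intervals given the summed reads, and cover counting error only, since reads can be copies of 1 molecule. With 1 library per group no test was run. Named were all members, the highest and lowest gene of each other list past the filter, NOTCH1 and the leading or absent markers. The members and all lists were chosen with earlier results of these data known, and the motifs, the overlapping genes and the genes outside the lists were chosen after the data were seen. Of 108 other symbols, 2 were matched by an older symbol. GC content and length are of the longest GENCODE 29 transcript. Shared sequence was found with BLAST+ 2.17.0 (at least 100 bases at 98% identity). Scripts ran in Python 3.11.15 with scipy 1.17.1 and were tested on simulated reads.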

Additional observations from a re-analysis of the deposited data

How the results depend on the processing

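With 1 library per group no library could be left out, and no variation between cultures can be estimated. No paired analysis was possible because each group had 1 library. Of 11 alternatives, 9 were listed at the start and 2, the running medians by GC content and by transcript length, were chosen after the data were seen. With FPKM as deposited, that is, without scaling, 3 of the 41 genes were at least 1.5-fold higher instead of 6, the median log2 fold change of the 41 genes was 0.21 instead of 0.27, that of the chaperones 0.54 instead of 0.60 and that of the isomerases 0.20 instead of 0.25; this setting moves every gene down by the same factor, and the median of all genes became -0.06. The other 10 alternatives gave 4 to 6 genes at 1.5-fold, and all 11 gave 18 to 25 genes at 1.2-fold. HERPUD1 stayed between 1.405 and 1.479 and HSPA5 between 1.06 and 1.14. The 4 lower class medians changed in spread or order in some alternatives. At a mean of at least 10 FPKM, where ERN1 and EIF2AK3 drop out, sensors and XBP1 had 0.37 against 0.20 for the translocon. With the running median by level these values were 0.27 and 0.17. With 1 FPKM added instead of 0.1, ERAD at 0.1962 lay just under the translocon at 0.1965. No gene past 1.2-fold changed direction. The genes OS9, SEC62, EDEM3 and SSR1, all near 0, changed sign in some alternatives, and no other did. Of 443 values of single genes under the alternatives, 25 lay outside their counting interval.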
